A study of Mus musculus with 2 samples.

Results

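The genes described are 10 transcriptional outputs and brakes of FGF to ERK signalling: the phosphatase genes *Dusp4* and *Dusp6*, the Sprouty genes *Spry1*, *Spry2* and *Spry4*, the Spred genes *Spred1* and *Spred2*, and the ETS transcription factor genes *Etv1*, *Etv4* and *Etv5*. They were chosen by name, as established feedback and ETS targets of the pathway, and their symbols were matched to the Ensembl identifiers of the gonadal somatic cell count table. All 10 were among its 42422 identifiers and all 10 were among the 15125 genes that passed the filter on low counts. E12.5 mouse gonads with the mesonephros attached were cultured, the mesonephros was removed, and the cells lacking GFP, taken as the somatic cells, were sorted for RNA-seq. Culture medium held DMSO, 500 nM of the FGF receptor inhibitor BGJ398 (FGFRi) or 500 nM of the MEK1/2 inhibitor PD0325901 (MEKi).

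There were 10 groups of 4 libraries. Uncultured XX and XY gonads at E12.5 gave 2 groups, XX and XY gonads in DMSO for 24 h or 72 h gave 4, XY gonads in MEKi for 24 h or 72 h gave 2 and XY gonads in FGFRi for 24 h or 72 h gave 2. No XX gonads with inhibitor were analysed here, so each inhibitor comparison refers to XY gonads. All gonads were wild type embryos of ASMU Swiss females and males on a 129svJT2 background that carried an Oct4(Pou5f1)-eGFP reporter, which marks germ cells and was shared by controls and treated groups. Each library came from several pooled gonads, and p-values therefore measure the spread between pools.

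FGF receptors act through RAS, RAF and MEK1/2 to phosphorylate the kinases ERK1/2, and active ERK switches on genes whose products restrain the same route. DUSP phosphatases remove phosphate from ERK, Sprouty proteins act at the level of the receptor, its adaptors and RAF, and Spred proteins hold back RAS, in part with neurofibromin. ETV1, ETV4 and ETV5 form the PEA3 group of ETS factors and carry the signal to further genes. In the foetal gonad FGF9 is known for its part in testis development, and transcript levels of these genes are widely used as a readout of ERK activity, although other routes also regulate them.

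Total counts of unique molecular identifiers (UMIs) ran from 1380707 to 4836550 a library, with a median of 2248854. Uncultured, DMSO 24 h and MEKi 24 h libraries were made in the study's set 3, and FGFRi 24 h and all 72 h libraries in set 4, so that MEKi and DMSO share a set at each time while FGFRi and DMSO do so at 72 h alone. The sex labels were borne out by all 8 Sertoli markers in uncultured gonads, which were lower in XX than in XY (median log2 fold change −4.17), and by all 6 pre-granulosa markers, which were higher (4.48). The sorted cells were not of a single type. Markers of endothelial cells summed to between 148 and 320 CPM (counts per 1000000 UMIs) in uncultured libraries, and germ cell markers to between 66.3 and 327 CPM although GFP-negative cells were collected.

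In GRCm39 the members lie on 9 chromosomes, and each is a protein-coding gene. The phosphatase genes are at chr8:35274442-35287048 (*Dusp4*, + strand) and chr10:99086564-99103361 (*Dusp6*, +). The Sprouty genes are at chr3:37693897-37698755 (*Spry1*, +), chr14:106128766-106136446 (*Spry2*, −) and chr18:38719300-38736025 (*Spry4*, −), and the Spred genes at chr2:116951524-117018277 (*Spred1*, +) and chr11:19874355-19974442 (*Spred2*, +). The ETS genes are at chr12:38828851-38920483 (*Etv1*, +), chr11:101660568-101676197 (*Etv4*, −) and chr16:22200052-22259662 (*Etv5*, −). *Dusp6*, *Spred1* and *Spred2* each overlap 1 annotated non-coding gene on their own strand, and the share of their counts that this could affect is unknown.

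XY gonads treated with MEKi for 72 h had the lowest mean of the 10 groups for 8 of the 10 members. The exceptions were *Dusp6*, for which MEKi 24 h (19.5 ± 5.45 CPM, SD, n = 4) and MEKi 72 h (20.2 ± 7.06) overlapped at the bottom, and *Etv1*, for which uncultured XX gonads were lowest (8.27 ± 2.91). At the other end, uncultured XY gonads were highest for 7 members, and XY DMSO 24 h for *Spred1*, *Spred2* and *Etv1*. In most of the orders adjacent groups overlapped. MEKi 72 h was separated from its next neighbour for *Dusp4*, *Spry4* and *Etv5* and at the top uncultured XY gonads were separated for *Etv4* and *Etv5*. Because 24 h and 72 h groups belong to different sets, an order that runs across those times is a description of levels alone. The share of all genes with such ranks or gaps was not computed. Counts come from tags near the transcript's 3′ end, and levels were compared between groups of a gene, not between genes.

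**Figure D1:**
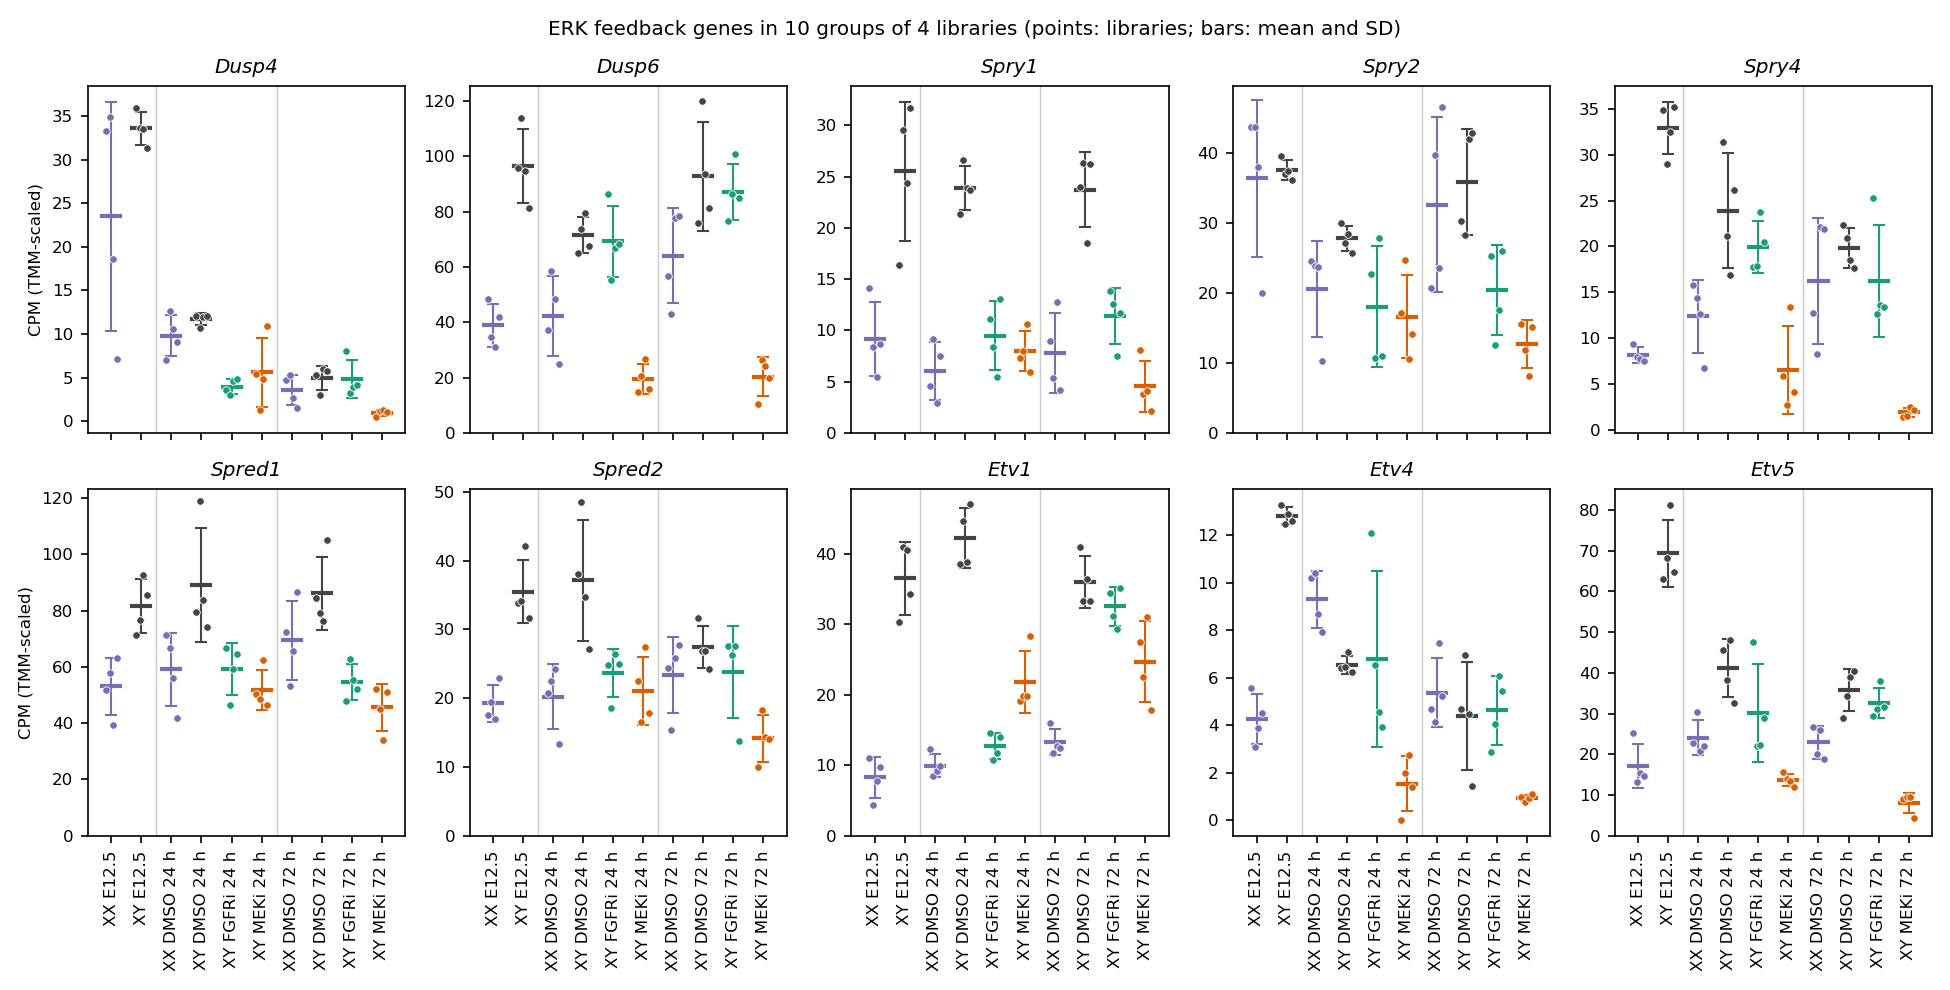
Level of each of the 10 genes (CPM, y axis) in every library of the 10 groups (x axis); each point is 1 library of pooled gonads, the horizontal bar is the group mean and the whisker its SD. MEKi 72 h libraries sit lowest for most genes, and *Spry4* there lay between 1.42 and 2.51 CPM.

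The first question was how the feedback genes responded when MEK1/2 was inhibited in XY gonads. After 24 h of MEKi, 8 of the 10 genes were lower than in DMSO and none was higher, and after 72 h 9 were lower and none higher. A gene was called at a false discovery rate (FDR) below 0.05 and a fold change of at least 1.5, by the edgeR quasi-likelihood test with Benjamini-Hochberg adjustment over 15125 genes. By that rule 3.18% of all genes were called at 24 h and 1.92% were lower, while at 72 h 6.44% were called and 4.17% were lower. The median log2 fold change of the 10 genes was −1.28 at 24 h (range −2.01 to −0.77) and −2.12 at 72 h (−3.33 to −0.53), beside medians of −0.01 and 0.00 over all genes tested. Every MEKi library lay below every DMSO library for 8 members at 24 h and for all 10 at 72 h, and 4.77% and 8.24% of all genes showed such a gap. For *Etv4* at 72 h the gap was narrow: DMSO library M6 (1.43 CPM) and MEKi library M4 (0.942 CPM) each rested on 3 UMIs. Tests of a change beyond 1.5-fold itself called fewer members and fewer of all genes. By glmTreat 5 members were called at 24 h and 6 at 72 h, where 152 and 131 of all 15125 genes were called. By voom with treat 2 were called at 24 h (*Dusp6* and *Etv5*) and 4 at 72 h (*Dusp6*, *Spry1*, *Spry4* and *Etv5*). That test called 88 and 75 of all genes.

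**Figure D2:**
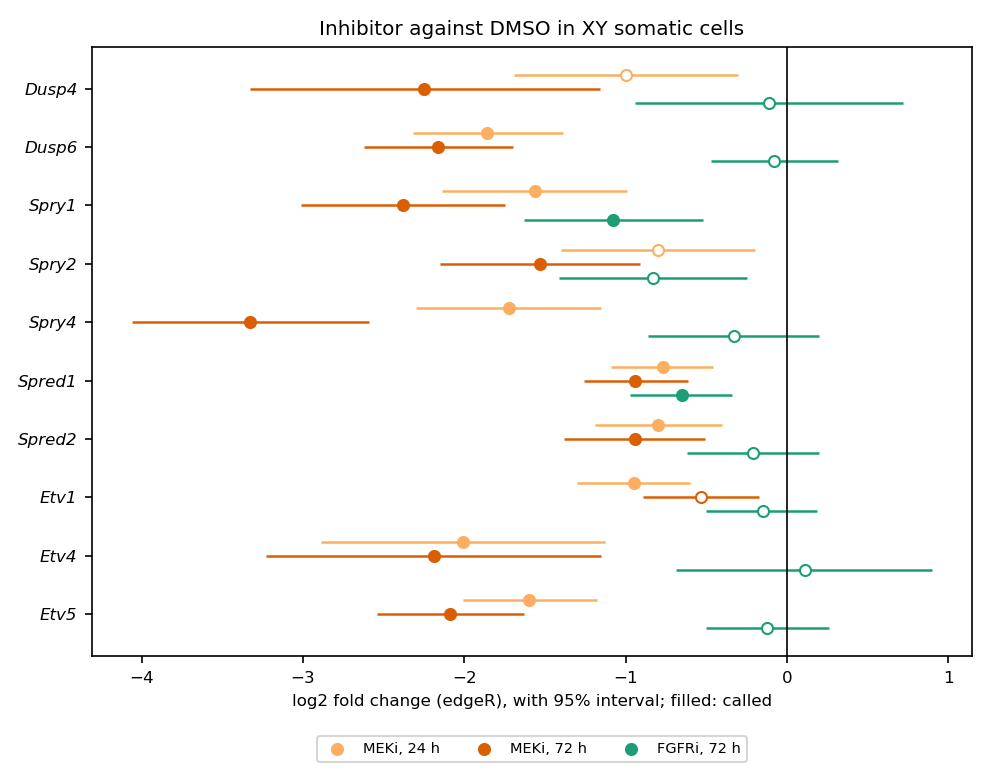
Log2 fold change (x axis) of the 10 genes in XY gonads with MEKi or FGFRi against DMSO; points are estimates and bars 95% intervals, filled points passed the call. MEKi estimates were all below 0 at both times, whereas FGFRi estimates at 72 h lay between −1.08 and 0.11.

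Among the phosphatases, *Dusp6*, whose product acts on ERK1/2 in the cytoplasm, stood at 65.2, 73.8, 79.5 and 67.7 CPM in XY DMSO 24 h and at 14.7, 20.6, 26.7 and 16 CPM in MEKi 24 h. After 72 h the DMSO libraries held 76, 120, 93.8 and 81.4 CPM and the MEKi libraries 10.4, 26.4, 24.2 and 20. No MEKi library came near a DMSO library at either time, and *Dusp6* fell 3.62-fold at 24 h (log2 fold change −1.86 ± 0.23, SE; FDR 3.33e-07) and 4.46-fold at 72 h (−2.16 ± 0.227; FDR 6.36e-09). *Dusp4*, which encodes a nuclear phosphatase, held 12.1, 10.7, 11.9 and 12.1 CPM in DMSO 24 h and 5.38, 1.33, 4.8 and 10.9 in MEKi 24 h. One MEKi library, M6, reached the lowest DMSO library, and the estimate of −1.0 did not pass (FDR 0.0913), although without M6 it was −1.5 (FDR 0.0162). At 72 h *Dusp4* was a low transcript in both groups, at 5.33, 2.98, 5.98 and 5.71 CPM in DMSO and 0.474, 1.15, 1.26 and 1.08 in MEKi, which rest on 1 to 4 UMIs a library. At this time it fell by 2.25 on the log2 scale (95% interval −3.33 to −1.16; FDR 0.00366).

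*Spry4* and *Spry1* gave the largest of the 10 estimated decreases at 72 h, and *Spry2* a smaller one. *Spry4* held 31.4, 21.1, 16.9 and 26.1 CPM in XY DMSO 24 h and 5.87, 2.66, 13.4 and 4.1 in MEKi 24 h. After 72 h it held 22.3, 20.9, 18.5 and 17.6 CPM in DMSO and 1.42, 1.53, 2.51 and 2.16 in MEKi. Those MEKi values rest on 3 to 8 UMIs a library. The groups were apart at both times, with library M4 highest among those treated for 24 h. *Spry4* fell 3.30-fold at 24 h (−1.72 ± 0.287; FDR 1.83e-05) and 10.0-fold at 72 h (−3.33 ± 0.368; FDR 7.24e-10), the 24 h value being −2.42 without M4. *Spry1*, which restrains receptor tyrosine kinase signalling in many developing organs, went from 21.4, 26.6, 23.9 and 23.7 CPM in DMSO 24 h to 7.34, 7.97, 10.6 and 5.93 in MEKi 24 h. At 72 h the DMSO libraries held 24, 26.3, 18.5 and 26.2 CPM and the MEKi libraries 8.06, 3.82, 4.08 and 2.16. Its fall was 2.95-fold at 24 h (FDR 0.000119) and 5.21-fold at 72 h (FDR 1.02e-07).

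*Spry2*, a Sprouty gene with a broad expression in embryos, held 29.9, 27.1, 28.4 and 25.7 CPM in DMSO 24 h and 17.1, 24.6, 10.6 and 14.1 in MEKi 24 h. The treated libraries were all lower yet widely spread, and the log2 difference of −0.80 (95% interval −1.40 to −0.20) did not pass the FDR threshold (0.131). After 72 h the libraries with DMSO held 30.3, 28.3, 41.9 and 42.8 CPM against 15.6, 11.8, 8.16 and 15.1 with MEKi, and *Spry2* fell 2.88-fold (−1.53 ± 0.305; FDR 0.000738).

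The Spred genes were called at both times, with the smallest changes among the members called. *Spred1* encodes an inhibitor that recruits neurofibromin to the membrane, and its levels were 79.5, 119, 83.7 and 74.3 CPM in DMSO 24 h, 50.4, 48.5, 62.3 and 46.5 in MEKi 24 h, 84.6, 79, 76.3 and 105 in DMSO 72 h and 52.1, 45.1, 33.9 and 51.2 in MEKi 72 h. It fell 1.71-fold at 24 h (FDR 0.000592) and 1.91-fold at 72 h (FDR 4.2e-05). Its relative *Spred2* held 38.1, 48.5, 34.7 and 27.2 CPM in DMSO 24 h and 22.5, 16.6, 27.4 and 17.8 in MEKi 24 h, so that the highest treated library just passed the lowest control. At 72 h the values were 31.7, 26.8, 26.9 and 24.3 CPM in DMSO and 9.95, 18.3, 14.4 and 14 in MEKi, with no overlap. *Spred2* fell 1.74-fold at 24 h (FDR 0.00793) and 1.92-fold at 72 h (FDR 0.00232). The 24 h call was lost without DMSO library M3 (−0.64, FDR 0.0843) or MEKi library M6 (−0.71, FDR 0.0537).

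Of the ETS factors, *Etv5*, the member with the smallest p-value in both MEKi comparisons, held 45.6, 38.3, 48.1 and 32.7 CPM in DMSO 24 h and 15.6, 13.9, 13.4 and 11.9 in MEKi 24 h. At 72 h it held 29, 34.3, 38.9 and 40.5 CPM in DMSO and 9.01, 9.55, 9.42 and 4.31 in MEKi. The treated libraries lay under all controls at each time, with M5 apart from the other MEKi libraries at 72 h, and *Etv5* fell 3.03-fold (FDR 7.27e-08) and 4.25-fold (FDR 6.3e-10). *Etv4* was the least counted of the 3, at 6.42, 6.46, 7.09 and 6.22 CPM in DMSO 24 h and 0, 1.99, 2.74 and 1.37 in MEKi 24 h. The count of 0 in library M1 allows a level of up to 1.47 CPM (3 counts, counting error alone). *Etv4* held 4.66, 6.96, 4.49 and 1.43 CPM in DMSO 72 h against 0.948, 0.764, 0.942 and 1.08 in MEKi 72 h. The MEKi values came from 2 or 3 UMIs each, and the lowest DMSO value, in library M6, from 3. It fell 4.04-fold at 24 h (−2.01 ± 0.441; FDR 0.00162) and 4.55-fold at 72 h (−2.19 ± 0.521; FDR 0.00316).

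*Etv1* behaved differently in size. Its levels were 38.5, 44.7, 38.9 and 47.1 CPM in DMSO 24 h and 19.1, 19.9, 19.9 and 28.3 in MEKi 24 h, a 1.93-fold fall (−0.95 ± 0.177; FDR 0.000153). At 72 h DMSO libraries held 41, 33.3, 36.4 and 33.3 CPM and MEKi libraries 27.5, 22.5, 31.1 and 17.8. Those groups did not overlap, and the FDR was under the threshold (0.0414), but the 1.44-fold difference (−0.53, 95% interval −0.89 to −0.17) was below the fold change required, and without MEKi library M4 it was −0.68 (FDR 0.0223).

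Promoters are shown for called members at the ends of the 24 h response, to let their sequence be set beside the values above. Those with the largest decreases were *Etv4*, *Dusp6*, *Spry4* and *Etv5* and the one with the smallest was *Spred1*. Sequences are from RefSeq (GRCm38.p6) and give the 250 bases before the start site, 5′ to 3′ on the gene's strand. The table held *Dusp6*, *Etv5* (2 start sites) and *Spred1*. Capitals mark GGAA or its reverse complement TTCC, the core bound by ETS factors.
*Dusp6*, chr10:99262981-99263230 (+): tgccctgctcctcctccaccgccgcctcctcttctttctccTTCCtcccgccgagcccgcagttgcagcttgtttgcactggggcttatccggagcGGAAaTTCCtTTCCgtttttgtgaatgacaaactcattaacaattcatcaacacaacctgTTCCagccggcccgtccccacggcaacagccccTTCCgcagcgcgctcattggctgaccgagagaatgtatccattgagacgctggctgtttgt
*Etv5* start 1, chr16:22439571-22439820 (−): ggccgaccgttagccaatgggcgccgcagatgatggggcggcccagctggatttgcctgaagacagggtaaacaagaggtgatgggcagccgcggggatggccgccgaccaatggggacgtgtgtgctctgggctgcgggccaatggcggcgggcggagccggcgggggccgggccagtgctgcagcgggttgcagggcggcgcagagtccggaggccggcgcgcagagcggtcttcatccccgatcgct
*Etv5* start 2, chr16:22438369-22438618 (−): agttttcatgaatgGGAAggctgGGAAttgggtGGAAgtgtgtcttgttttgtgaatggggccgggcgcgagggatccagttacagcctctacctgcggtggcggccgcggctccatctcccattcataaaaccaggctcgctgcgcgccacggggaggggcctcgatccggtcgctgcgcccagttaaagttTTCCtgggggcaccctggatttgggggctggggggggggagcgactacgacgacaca
*Spred1*, chr2:117120821-117121070 (+): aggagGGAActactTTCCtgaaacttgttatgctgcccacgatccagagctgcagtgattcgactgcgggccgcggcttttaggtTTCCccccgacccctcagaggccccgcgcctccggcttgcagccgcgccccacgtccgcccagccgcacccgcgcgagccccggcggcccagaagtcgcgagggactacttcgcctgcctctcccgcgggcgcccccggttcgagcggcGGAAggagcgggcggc

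The core was found 6 times before *Dusp6*, 0 and 4 times before the *Etv5* starts and 4 times before *Spred1*. At least 1 match on either strand was present in 93.4% of the 32851 promoters of this length, with a median of 3, so that *Dusp6*, *Spred1* and *Etv5* start 2 lay above that median and *Etv5* start 1 below it. Longer forms of the ETS site, CCGGAA (12.0% of promoters, and overlapping the core) and CCGGAAGT (2.9%), were not found in the windows of the members in the table, nor were the AP-1 site TGACTCA (4.5%), the cyclic AMP response element TGACGTCA (1.5%) or a CArG box (1.5%). The shorter TGACG, in 17.8% of promoters, was found once, before *Spred2*. These matches describe letters and not binding.

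The MEKi effect was then compared between 24 h and 72 h, each taken against DMSO of the same set. The 24 h libraries were in set 3 and the 72 h libraries in set 4. A change of the effect with time and a change with set cannot be told apart. None of the 10 genes passed the edgeR quasi-likelihood test of that change, where 1.28% of all genes did, and DESeq2 also called 0. The median change of the members was −0.40, beside 0.00 over all genes, and 9 estimates were below 0. At an unadjusted p below 0.05 1 of them differed, *Spry4*, with −1.60 ± 0.499 (FDR 0.0928). Leaving out MEKi 24 h library M2 gave −1.80 (FDR 0.0465), and across all such omissions its value lay between −1.82 and −0.91. *Dusp4* (−1.25, 95% interval −2.57 to 0.07), *Spry1* (−0.82, −1.70 to 0.06) and *Spry2* (−0.73, −1.60 to 0.14) had intervals reaching just past 0. *Etv1*, in contrast, had a positive estimate (0.42, −0.08 to 0.92).

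Endothelial markers moved with MEKi in the same libraries. All 10 were called lower at 24 h (median log2 fold change −2.42) and their sum was 250 to 386 CPM in DMSO and 61.5 to 83.7 CPM in MEKi. At 72 h 8 of 10 were lower (−1.90), with sums of 89.5 to 168 CPM and 47.5 to 67.3 CPM, and none of the markers was at 0 in any of these groups. Over the 40 libraries the correlation of a member with this sum ran from 0.042 for *Etv1* to 0.76 for *Etv4*, with 0.72 for *Spry4* and 0.598 for *Dusp6*, as a description across libraries that share their depth and group. In bulk RNA, fewer cells of a type and less RNA per cell cannot be told apart, and the part of endothelial cells in the fall of the feedback genes was not tested.

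**Figure D3:**
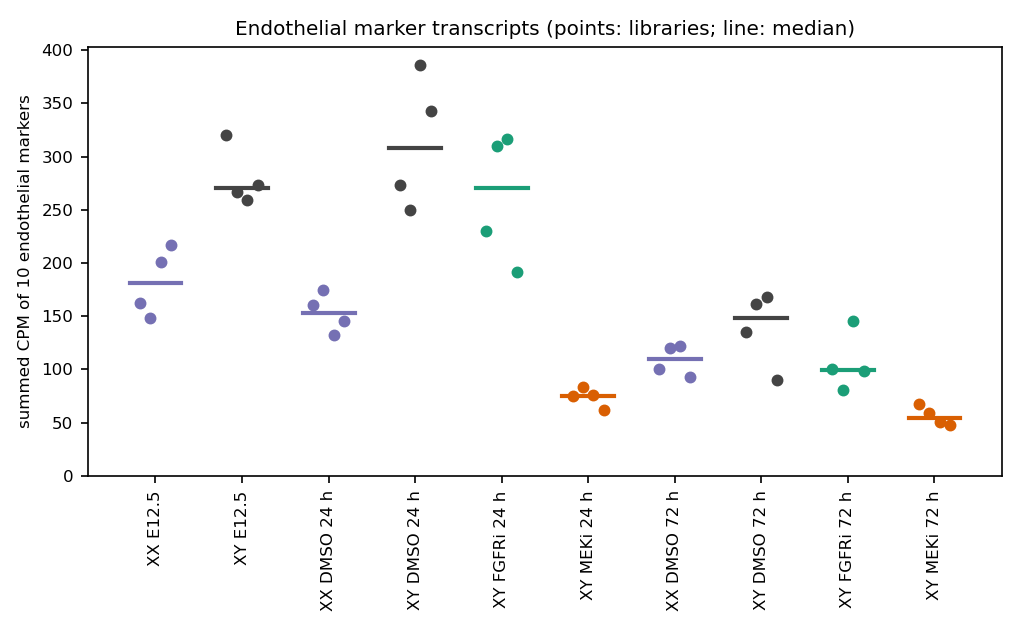
Summed level of 10 endothelial markers (CPM, y axis) in the 4 libraries of each of the 10 groups (x axis); points are libraries and lines group medians. MEKi 24 h libraries lie between 61.5 and 83.7 CPM and XY DMSO 24 h libraries between 250 and 386 CPM.

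Other cell type markers also differed. With MEKi at 24 h, 5 of 6 germ cell markers tested were higher (sums of 291 to 559 CPM against 124 to 196 in DMSO), 1 of 8 Sertoli markers was higher (*Dmrt1*) and 2 of 6 pre-granulosa markers were higher. At 72 h, 4 of 8 Sertoli markers were lower (464 to 684 CPM against 715 to 1240) and 4 of 5 macrophage markers were lower, while 3 of 4 foetal Leydig markers and 1 of 5 interstitial progenitor markers were higher. Their part in the values of the 10 genes was not tested.

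Next, the response to FGFR inhibition was measured. At 72 h, where FGFRi and DMSO share a set, 2 of the 10 genes were lower (*Spry1* and *Spred1*) and none was higher, in a comparison that called 1.74% of all genes and 0.926% as lower. The median of the members was −0.18, beside −0.00 over all genes. *Spry1* held 13.8, 12.6, 7.52 and 11.7 CPM in FGFRi 72 h, under the lowest DMSO library at 18.5 CPM, and fell 2.11-fold (−1.08 ± 0.279; FDR 0.0212 by the edgeR quasi-likelihood test). *Spred1* held 47.8, 62.8, 55.5 and 52 CPM, also under all DMSO libraries (76.3 to 105), and fell 1.57-fold (−0.65 ± 0.159; FDR 0.0135). *Spry2* was the third gene whose groups did not overlap, at 25.3, 12.6, 17.5 and 26 CPM, and its difference of −0.83 did not pass (FDR 0.127). A gap of that kind was seen in 3.65% of all genes.

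Neither FGFRi call was made by a test of a change beyond 1.5-fold (glmTreat or voom with treat, 0 members each). Over all 15125 genes those tests called 6 and 0 in this comparison. Both calls were lost in some of the fits with 1 library left out. In those fits the estimates lay between −1.17 and −0.91 for *Spry1* and between −0.73 and −0.54 for *Spred1*. The *Spry1* call was lost without FGFRi library M5 (−0.91, FDR 0.175) or M6 (−1.10, FDR 0.0541) and without DMSO library M2 (−1.07, FDR 0.0671), M4 (−1.02, FDR 0.0618) or M6 (−1.02, FDR 0.076). That of *Spred1* was lost without FGFRi library M5 (−0.66, FDR 0.0541) or DMSO library M6 (−0.54, FDR 0.0945). The other 7 members gave values close to those of DMSO. *Dusp6* held 76.6, 86.3, 101 and 85.1 CPM, inside the DMSO range of 76 to 120, and its interval of −0.47 to 0.32 leaves room for a decrease of no more than 0.47 on the log2 scale. *Etv5* (−0.12, −0.50 to 0.26), *Etv1* (−0.15, −0.50 to 0.19) and *Spred2* (−0.21, −0.62 to 0.20) were similarly narrow, while *Spry4* (−0.33, −0.86 to 0.20), *Dusp4* (−0.11, −0.94 to 0.72) and *Etv4* (0.11, −0.69 to 0.90) were measured less finely. The 10 endothelial markers had a median log2 fold change of −0.53 (sums of 81 to 145 CPM against 89.5 to 168 in DMSO). Of them, 0 were called by edgeR, 2 had an unadjusted p below 0.05 and DESeq2 called 0. All 5 macrophage markers tested were lower. The part of these cells in the values of the 10 genes was not tested.

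A direct comparison of the inhibitors at 72 h gave 7 of 10 genes lower with MEKi than with FGFRi, in a background of 6.29% of genes called and 4.58% lower. The median of the members was −1.64 and that of all genes 0.01. *Spry4* differed most (−3.00 ± 0.379; 7.98-fold; FDR 2.73e-08 by the edgeR quasi-likelihood test), then *Etv4* (−2.29; FDR 0.0013), *Dusp4* (−2.14; FDR 0.00593), *Dusp6* (−2.08; FDR 1.48e-08), *Etv5* (−1.97; FDR 3.51e-09) and *Spry1* (−1.30; FDR 0.00722). *Spred2* passed with −0.73 (FDR 0.0231) but not without FGFRi library M2 (−0.67, FDR 0.0636), M4 (−0.68, FDR 0.0654) or M5 (−0.65, FDR 0.108) or MEKi library M2 (−0.61, FDR 0.104). Tests beyond 1.5-fold called 4 members (glmTreat) or 3 (voom with treat), and 198 or 90 of all 15125 genes. For *Spry2* (−0.70, 95% interval −1.35 to −0.05), *Spred1* (−0.28, −0.61 to 0.05) and *Etv1* (−0.37, −0.73 to −0.02) the difference was not called. Of the Sertoli markers 7 of 8, and of the endothelial markers 5 of 10, were likewise lower with MEKi.

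FGFRi and DMSO libraries at 24 h were made in different sets, and an effect of the drug and an effect of the set cannot be told apart there. In that comparison 5 members were lower and none higher, where 3.21% of all genes were called and 1.57% were lower. Of the called genes 49% were lower, and 64.6% when total counts were used for scaling. *Etv1* held 14.6, 10.7, 11.8 and 14 CPM in FGFRi 24 h against 38.5 to 47.1 in DMSO 24 h, a difference of −1.71 ± 0.192 (FDR 3.79e-09). In FGFRi 72 h, made in the same set as FGFRi 24 h, it held 34.5, 31.2, 29.4 and 35.2 CPM. *Dusp4* (−1.52; FDR 0.0068) and *Spry1* (−1.32; FDR 0.00152) were also lower. *Spred1* (−0.59; FDR 0.014) and *Spred2* (−0.65; FDR 0.038) passed by a small margin. The first was lost without DMSO library M3 (−0.42) or FGFRi library M3 (−0.50), and the second without DMSO library M2 (−0.65) or M3 (−0.49) or FGFRi library M1 (−0.67), M3 (−0.56), M4 (−0.71) or M5 (−0.68). *Etv5* was at −0.45, and at −0.76 (FDR 0.015) without FGFRi library M1. *Etv1* was the single member called by tests beyond 1.5-fold, where glmTreat called 27 of all 15125 genes and voom with treat 16. *Dusp6* held 86.4, 55.4, 67 and 68.2 CPM and *Spry4* 17.7, 17.9, 23.7 and 20.5 CPM, each overlapping DMSO. Cell type markers differed too. Germ cell sums were 33.9 to 79.3 CPM in FGFRi 24 h and 124 to 196 in DMSO 24 h, with 3 of 6 markers lower and 1 higher (*Stra8*). Of the other lists, 1 of 10 endothelial markers (*Emcn*), 1 of 5 macrophage markers (*C1qb*) and 1 of 2 duct epithelium markers (*Epcam*) were lower, and 1 of 8 Sertoli (*Aard*) and 1 of 6 pre-granulosa markers (*Rspo1*) higher, and their part in the values of the 10 genes was not tested.

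Neighbouring genes of the pathway were taken from lists that do not contain the 10, and differences between these lists and the 10 were not tested. Of 17 other feedback inhibitors and phosphatases tested, 2 were lower with MEKi at 24 h and 5 at 72 h, with list medians of −0.31 and −0.39. *Dusp2*, an inducible nuclear phosphatase, fell by 3.27 at 24 h and by 2.66 at 72 h on the log2 scale, and *Errfi1*, an inhibitor of the EGF receptor, by 0.78 and 0.83. *Nf1*, which encodes neurofibromin (−0.87), *Dusp7* (−0.90) and *Dusp16* (−0.72) were lower at 72 h alone among the calls. *Dusp14* went the other way at 72 h, with 1.65 for MEKi (FDR 0.0284) and 1.91 for FGFRi (FDR 0.0266), and was the single call of the list with FGFRi (median −0.03).

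Genes for the signalling chain itself were close to control at 72 h. Of 18 components from receptor adaptors to ERK, 0 were called with either inhibitor by the edgeR quasi-likelihood test, and the medians were −0.03 with MEKi and −0.07 with FGFRi. At an unadjusted p below 0.05, 1 of them differed at 72 h with MEKi and 0 with FGFRi, and DESeq2 called 0 and 0. Of 13 other ETS factors, 4 were lower with MEKi at each time (medians −0.33 and −0.45) and 2 with FGFRi at 72 h (median 0.05). *Fli1* (−1.98 and −2.73) and *Erg* (−2.06 and −4.18), both known as endothelial ETS factors, led these decreases, and the endothelial marker sums given above fell with them. *Ets1* was lower in all these comparisons (−0.78 and −1.03 with MEKi, −0.84 with FGFRi), *Ets2* with MEKi at 24 h (−0.67), and *Elk3* at 72 h with MEKi (−0.61) and FGFRi (−0.98).

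Of 7 further transcripts used as readouts of MEK activity, 1 was lower with MEKi at 24 h and 2 at 72 h, with medians of −0.38 and −0.69. *Phlda1* was lower at both times (−0.85 and −0.69). *Ccnd1*, the gene of cyclin D1, fell by 1.49 on the log2 scale with MEKi and by 1.45 with FGFRi at 72 h, and *Ier3* was higher with FGFRi (1.04, FDR 0.0496), the list having a median of −0.20 there. MEKi and FGFRi comparisons at 72 h share their 4 DMSO libraries.

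**Figure D4:**
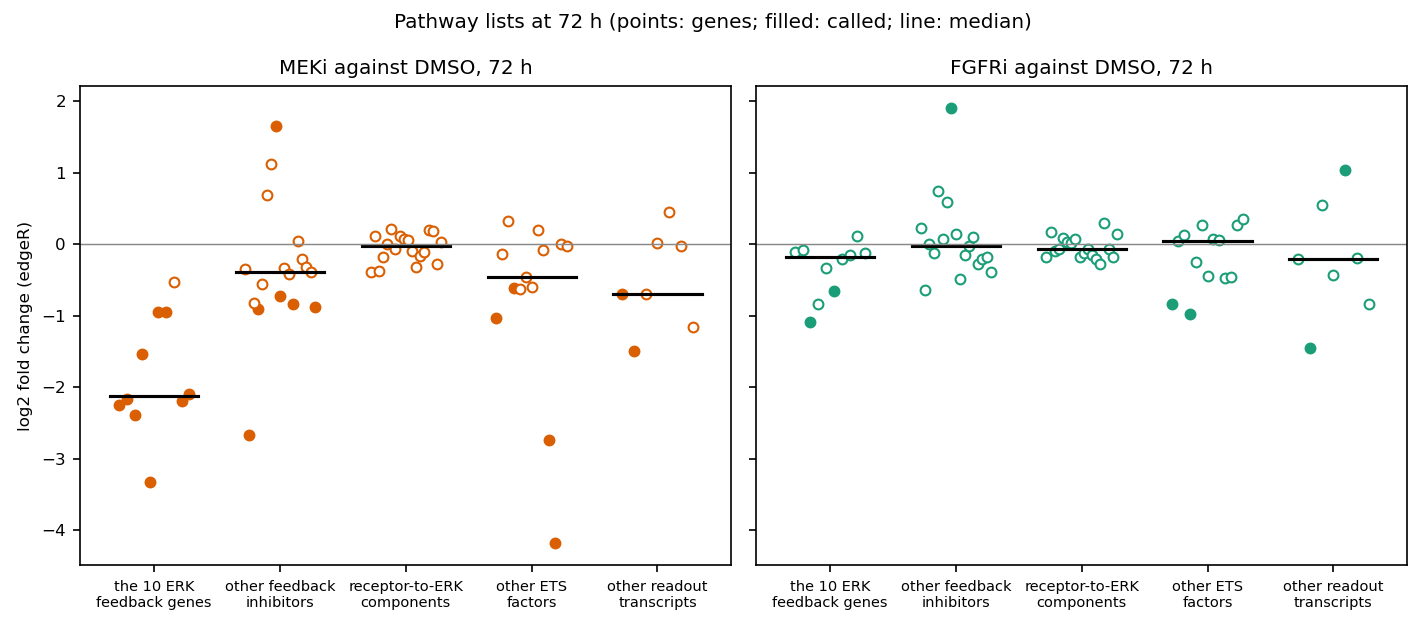
Log2 fold change (y axis) of the 10 members and of the genes in the 4 pathway lists, in XY gonads with MEKi (left) or FGFRi (right) against DMSO at 72 h; each point is a gene, filled where called, and the line is the list median. The members' medians were −2.12 with MEKi and −0.18 with FGFRi, and those of the chain from receptor to ERK −0.03 and −0.07.

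The level of the feedback genes in the developing ovary and testis was compared next. In uncultured E12.5 gonads 8 of 10 genes were lower in XX than in XY and none was higher, in a comparison that called 17.3% of genes and 9.33% as lower. The median was −1.36 for the members and −0.01 for all genes. *Spry4* held 9.4, 7.95, 7.75 and 7.54 CPM in XX and 34.9, 29, 32.5 and 35.2 in XY, a 4.01-fold difference (−2.00 ± 0.285; FDR 4.89e-08 by the edgeR quasi-likelihood test). *Etv1* held 11.1, 4.42, 7.75 and 9.8 CPM in XX and 30.3, 41, 40.6 and 34.3 in XY (4.34-fold; FDR 1.16e-12). *Etv5* held 25.2, 13.3, 15.5 and 14.7 CPM in XX and 63.1, 68.3, 81.3 and 64.8 in XY (4.01-fold; FDR 9.46e-13). In each of these the sexes were far apart, with no library between them.

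*Etv4* was 2.96-fold lower in XX before culture (3.09 to 5.55 CPM against a mean of 12.8 ± 0.369, SD; FDR 0.000656), *Spry1* 2.70-fold (5.42 to 14.1 against 16.4 to 31.7; FDR 7.47e-05) and *Dusp6* 2.44-fold (31 to 48.3 against 81.3 to 114; FDR 7.49e-06). *Spred2* was 1.82-fold lower (17 to 23 against 31.7 to 42.1 CPM; FDR 0.00108). *Spred1* was 1.51-fold lower (FDR 0.0035), just past the fold change required, and no longer reached it without XX library F2 (−0.58) or F4 (−0.51) or XY library M5 (−0.55) or M6 (−0.57). *Dusp4* (7.16 to 34.9 CPM in XX, 31.3 to 35.9 in XY; FDR 0.211) and *Spry2* (20 to 43.7 and 36.1 to 39.5; FDR 0.914) overlapped between the sexes, and in both the XX libraries were the more spread, with F5 lowest.

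After 24 h in DMSO, 7 of 10 genes were lower in XX, beside 19.6% of genes called and 10.3% lower, and the median of the members was −0.76. *Etv1* remained the most different (8.42 to 12.3 CPM in XX, 38.5 to 47.1 in XY; 4.25-fold; FDR 2.2e-14), followed by *Spry1* (2.9 to 9.16 and 21.4 to 26.6; 3.77-fold; FDR 1.16e-07). *Spry4* (1.87-fold), *Spred2* (1.84-fold), *Etv5* (1.70-fold), *Dusp6* (1.68-fold) and *Spred1* (1.5-fold) were also called. Without XX library F9 *Dusp6* was at −0.58, and *Spred1* was not called without XX library F6 (−0.58) or F9 (−0.47) or XY library M3 (−0.42). *Etv4* was at 10.2, 10.4, 8.7 and 7.91 CPM in XX and 6.42, 6.46, 7.09 and 6.22 in XY, so that every XX library was above every XY library, the opposite of the order before culture, and the difference of 0.50 did not pass (FDR 0.282). Of the members, tests beyond 1.5-fold called *Spry1* and *Etv1* alone at 24 h, where glmTreat called 1576 of all 15125 genes and voom with treat 1156.

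After 72 h in DMSO, 3 members were lower in XX, with 20.2% of genes called, 10.7% lower and a member median of −0.41. *Spry1* held 8.93, 5.32, 12.8 and 4.18 CPM in XX and 24, 26.3, 18.5 and 26.2 in XY (2.85-fold; FDR 2.95e-05), and *Etv1* 11.8 to 16 CPM in XX and 33.3 to 41 in XY (2.71-fold; FDR 1.41e-08). *Etv5* (1.53-fold; FDR 0.0153) was lost without XX library F4 (−0.56) or F8 (−0.53) or XY library M5 (−0.57) or M6 (−0.55). *Dusp6* (−0.51, FDR 0.0519) was called without XX library F7 (−0.63) or F8 (−0.61) or XY library M2 (−0.60). *Spry4* spanned 8.27 to 22.1 CPM in XX around the XY range of 17.6 to 22.3 and was not called (−0.25, 95% interval −0.78 to 0.27).

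**Figure D5:**
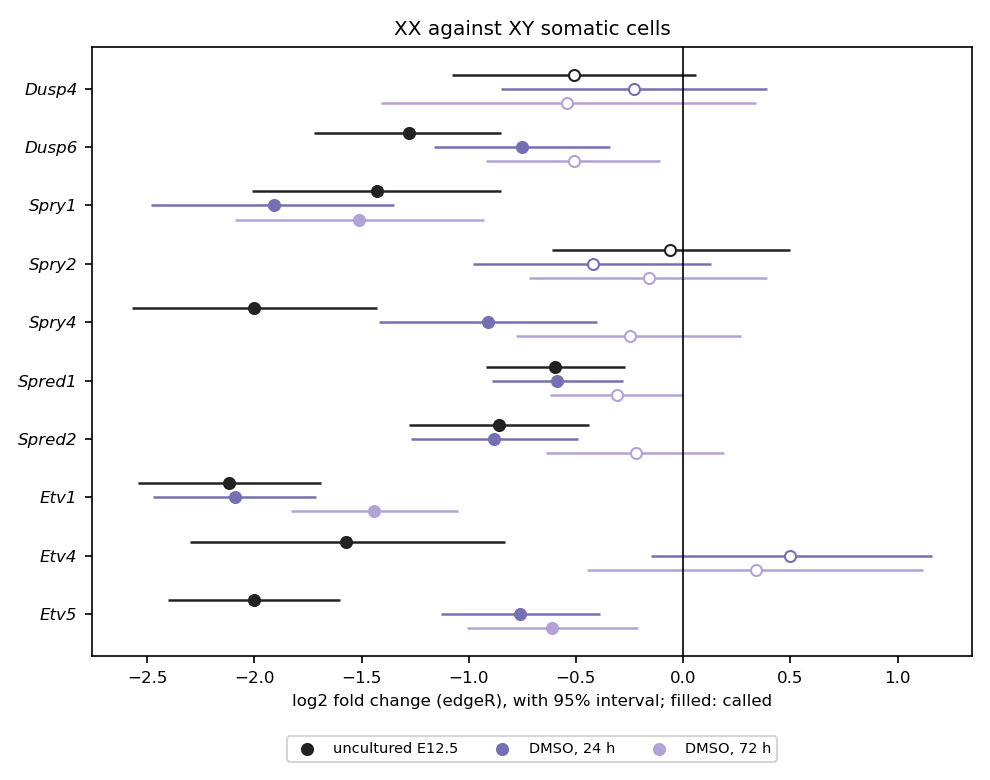
Log2 fold change of XX against XY (x axis) for the 10 genes in uncultured gonads and after 24 h and 72 h in DMSO; points are estimates, bars 95% intervals and filled points passed the call. *Etv1* and *Spry1* lay below −1.4 at all times, whereas *Etv4* went from −1.57 to 0.50 and 0.34.

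The cell make-up of XX and XY gonads differed in the same libraries. All 5 interstitial progenitor markers were lower in XX at 24 h and 72 h and 4 of 5 before culture, and endothelial markers were lower in 6 of 10, 9 of 10 and 1 of 10 (sums of 148 to 217 CPM in XX and 259 to 320 in XY before culture, 132 to 175 and 250 to 386 at 24 h, 92.9 to 122 and 89.5 to 168 at 72 h). Erythroid markers were lower in XX in 1, 4 and 1 of 5 and foetal Leydig markers in 3, 3 and 1 of 4, while of 6 germ cell markers 5 were lower in XX before culture, 2 were higher at 24 h, and 2 were lower and 1 higher at 72 h. The part of these cells in the difference between sexes was not tested.

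Culture itself was then examined by setting DMSO 24 h against uncultured gonads, which share a set. In XY gonads 3 members were lower, with 14.3% of all genes called (38% of them lower, or 22.4% with total counts for scaling) and a member median of −0.43. *Dusp4* held 35.9, 33.6, 33.5 and 31.3 CPM before culture and 12.1, 10.7, 11.9 and 12.1 after it, a 2.87-fold fall (−1.52 ± 0.289; FDR 4.36e-05 by the edgeR quasi-likelihood test). *Etv5* fell by 0.74 on the log2 scale (63.1 to 81.3 CPM before, 32.7 to 48.1 after; FDR 0.000864). *Etv4* fell by 0.96 (12.8 ± 0.369 CPM before, 6.55 ± 0.375 after, mean ± SD; FDR 0.0257), and the call was lost without uncultured library M2 (−0.95, FDR 0.0576) or DMSO library M2 (−0.94, FDR 0.0507) or M3 (−0.95, FDR 0.0607). In XX gonads *Dusp4* fell as well and *Etv4* rose, in a background of 7.72% of genes and with a member median of 0.13. *Dusp4* held 33.3, 34.9, 18.6 and 7.16 CPM before and 7.01, 12.6, 10.6 and 9.09 after (−1.24; FDR 0.00286), with uncultured library F5 inside the range of the cultured ones. Without uncultured library F3 its value was −0.98 (FDR 0.0525). Marker lists moved over the same 24 h. In XY gonads 6 of 8 Sertoli, 4 of 5 erythroid, 2 of 5 macrophage and 1 of 6 germ cell markers were lower, 3 of 4 foetal Leydig and 2 of 5 interstitial progenitor markers were higher, and of 6 pre-granulosa markers 4 were higher and 1 lower. In XX gonads 5 of 5 erythroid, 3 of 5 macrophage, 1 of 8 Sertoli and 1 of 10 endothelial markers were lower, 4 of 6 germ cell, 2 of 4 foetal Leydig and 1 of 2 duct epithelium markers were higher, and of 6 pre-granulosa markers 1 was higher and 1 lower. The part of these cells in the values of the members was not tested.

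*Etv4* in XX gonads held 5.55, 3.09, 3.87 and 4.52 CPM before culture and 10.2, 10.4, 8.7 and 7.91 after 24 h, and rose 2.16-fold (FDR 0.0361). All cultured libraries were above all uncultured ones, but the call was lost without uncultured library F3 (0.98, FDR 0.134), F4 (1.07, FDR 0.0785) or F5 (1.14, FDR 0.0588) or DMSO library F4 (1.07, FDR 0.0722), F5 (1.05, FDR 0.0913) or F6 (1.13, FDR 0.0545). *Etv5* was at 0.50 (FDR 0.121) and at 0.76 (FDR 0.0249) without uncultured library F2, and *Spry2* at −0.80 (FDR 0.0579) and −1.02 (FDR 0.00941) without uncultured library F5. When the change of the XX against XY difference over those 24 h was itself tested, 2 members passed, beside 6.14% of all genes (43.6% of them with a negative change, or 53.9% with total counts for scaling). *Etv4* gave 2.07 ± 0.493 (FDR 0.0033) and *Etv5* 1.24 ± 0.274 (FDR 0.00132). The XX deficit of *Etv5* was thus smaller after culture, whereas the sign of the *Etv4* difference turned from −1.57 to 0.50, the latter not called. For *Spry4* the change was 1.10 (FDR 0.0755). The medians were 0.15 for the members and 0.00 for all genes. In that interval 4 of 6 germ cell markers also changed in the same direction (median 2.23), whose part was not tested.

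A last comparison, added after the data had been seen, set MEKi-treated XY gonads beside XX gonads in DMSO. At 24 h 4 members were lower in the treated XY gonads and 1 was higher (16.4% of genes called, member median −0.57), and at 72 h 8 were lower and 1 was higher (19.1% called, −1.42). *Etv1* was the higher gene both times, at 19.1 to 28.3 CPM with MEKi against 8.42 to 12.3 in XX at 24 h (1.14; FDR 1.36e-05) and at 17.8 to 31.1 against 11.8 to 16 at 72 h (0.91; FDR 0.000259). *Etv4* was lower in treated XY gonads than in XX gonads, with a log2 difference of −2.52 at each time (FDR 3.83e-06 and 5.42e-05), as were *Dusp6* (−1.11 and −1.65) and *Etv5* (−0.84 and −1.48). *Spry4* was at −0.82 at 24 h (FDR 0.0472), a call lost without XX library F4 (−0.68), F5 (−0.72) or F6 (−0.80) or MEKi library M1 (−0.75), M2 (−0.60) or M6 (−0.61), and at −3.07 at 72 h (FDR 7.18e-10). *Spry1* was close to its XX level at 24 h (0.35, 95% interval −0.31 to 1.02).

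At 72 h *Spry2* (−1.37), *Dusp4* (−1.71), *Spred2* (−0.72) and *Spred1* (−0.62) were below the XX level too. The *Dusp4* call was lost without XX library F11 (−1.53) or F4 (−1.5) or MEKi library M2 (−1.51), that of *Spred2* without MEKi library M2 (−0.59) and that of *Spred1* without XX library F8 (−0.50) or MEKi library M4 (−0.50). In the same comparison 8 of 10 endothelial markers were lower in treated XY gonads at 24 h (median −1.28) and 6 of 10 at 72 h (−1.48), as were all 6 pre-granulosa markers at both times and 3 of 5 macrophage markers at 72 h. Sertoli markers were higher in 8 of 8 and 7 of 8, interstitial progenitor markers in 5 of 5 at both times, foetal Leydig markers in 3 and 2 of 4 and erythroid markers in 4 and 0 of 5. Of 6 germ cell markers 4 were higher at 24 h, and 2 were higher and 1 lower at 72 h. Their part in the member values was not tested.

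Across the 40 libraries the members moved together to different degrees. The 45 pairwise correlations of log2 CPM ran from −0.0077 to 0.858, the highest being *Dusp6* with *Spry4*, with a median of 0.536. Once each group's mean was removed they ran from −0.316 to 0.571 with a median of 0.0616, so that most of the shared movement lay between groups. Among 12971 genes with a mean of at least 5 CPM, those most like *Etv5* were *Jade1* (r = 0.876), *Scara5* (0.849) and *Gask1b* (0.806), and those most like *Etv1* were *Fam111a* (0.846), *Ccn4* (0.843) and *Slc29a1* (0.835). *Spry4* was followed by *Cd93* (0.83), *Elmo1* (0.807) and *Mmrn2* (0.802), *Etv4* by *Gimap6* (0.806), *Espn* (0.803) and *Esam* (0.799), and *Dusp4* by *Plvap* (0.82), *Hmga1b* (0.817) and *Hmga2* (0.812). For *Dusp6* the nearest were *Tox2* (0.778), *Fabp4* (0.749) and *Nrarp* (0.748), for *Spry1* *Col14a1* (0.787), *Irs2* (0.78) and *Tmpo* (0.709), and for *Spry2* *Rgs5* (0.692), *Ccnd1* (0.659) and *Cx3cr1* (0.656). *Spred1* lay nearest to *Frem1* (0.768), *Csnk1g2* (0.713) and *Lrp6* (0.696), and *Spred2* to *Rnf144a* (0.753), *Arid2* (0.745) and *Spire1* (0.737). *Cd93*, *Mmrn2*, *Plvap* and *Esam* are endothelial genes, and *Cx3cr1* is in the macrophage marker list used above. The cell types of the other nearest genes were not examined. These libraries share 10 group means and a common normalisation, and the correlations are given as descriptions.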

How the data were processed

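RNA was measured in pools of sorted GFP-negative gonadal cells, 40 libraries in 10 groups of 4. Per the study's methods the authors processed reads with scPipe and Rsubread on GRCm39 and deposited UMI counts per gene, not normalised and summed over 2 lanes. Those methods are written for germ cells, and limma and edgeR are the tools that the submitters' processing notes name. Libraries were placed in groups by the sample names in the deposited barcode list, which uses the names in the labels. 1 library, XY MEKi 24 h M2, is absent from the labels' list of names and was included from that barcode list. 0 columns of values were left unused.

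From the counts, edgeR 4.0.16 (R 4.3.3) was run with filterByExpr by group, TMM scaling, 1 mean per group over all 40 libraries and a robust quasi-likelihood fit. A call needed a Benjamini-Hochberg FDR below 0.05 over 15125 genes and a fold change of at least 1.5. CPM are TMM-scaled, and intervals are 95%. The script was tested on simulated data. Alternatives were RLE or total-count scaling, 2 other filters, glmTreat, limma 3.58.1 voom with quality weights and treat (the study's own test), DESeq2 1.42.0, fewer libraries in the fit, each library left out and a replicate block. A fit without robust shrinkage, the comparisons of XY MEKi with XX DMSO and the change of the XX against XY difference were added after the data had been seen. Gene positions are from GENCODE M39 (40391 of 42422 identifiers matched, with 99.0% of counts).

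All 10 members were tested in every comparison, but not all of them are named in each. Pathway genes are named where they passed with MEKi or with FGFRi at 72 h. For each member 3 most similar genes are given, by Pearson r of log2 CPM. The 24 h result for receptor-to-ERK components is not reported here. Members and lists were chosen with earlier results of these data known.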

Additional observations from a re-analysis of the deposited data

Results flagged for a closer look

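In 100 groups of 4 libraries (10 genes in 10 groups), 6 held a library that stood apart by Dixon's criterion, where chance gives about 1 in 20. *Dusp4* in XY DMSO 24 h library M3 was at 10.7 CPM, with its nearest neighbour at 11.9. *Spry2* in XX DMSO 24 h library F9 was at 10.3 CPM (nearest 23.7), and *Spry4* in XY FGFRi 72 h library M2 at 25.3 CPM (nearest 13.6). *Spred2* in XY FGFRi 72 h library M6 was at 13.8 CPM (nearest 26.3). *Etv1* in XY MEKi 24 h library M6 was at 28.3 CPM (nearest 19.9), and *Etv5* in XY MEKi 72 h library M5 at 4.31 CPM (nearest 9.01).

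The XX against XY difference changed between uncultured and 24 h DMSO gonads for *Etv4* (2.07 on the log2 scale) and *Etv5* (1.24), in the edgeR quasi-likelihood test of that change.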

How the results depend on the processing

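Over the settings other than leaving out a library, 1105 values of single genes were recomputed, of which 1017 kept their direction and side of the threshold, 72 fell short of it, 12 newly passed and 4 changed sign, none of them called. With 1 library left out the counts were 891 of 960, with 43 short, 9 newly passing and 17 of changed sign, none called. A test of a change beyond 1.5-fold is stricter by construction. By glmTreat the members called were 5 for MEKi at 24 h, 1 and 0 for FGFRi at 24 h and 72 h, 4 for MEKi against FGFRi, 2 for XX against XY at 24 h, 1 and 0 for culture in XY and XX, 2 and 5 for XY MEKi against XX DMSO at 24 h and 72 h, and 1 for the change of the sex difference. By voom with quality weights and treat they were 2 and 4 for MEKi at 24 h and 72 h, 1 and 0 for FGFRi at these times, 3 for MEKi against FGFRi, 5 and 2 for XX against XY uncultured and at 24 h, 1 and 0 for culture in XY and XX, 1 and 4 for XY MEKi against XX DMSO, and 0 for the change of the sex difference. Over all genes these tests called 152 and 88 for MEKi at 24 h (481 in the quasi-likelihood test), 131 and 75 at 72 h (974), 6 and 0 for FGFRi at 72 h (263), 27 and 16 for FGFRi at 24 h (486), 198 and 90 for MEKi against FGFRi (952), 1383 and 936 for XX against XY uncultured (2619), 1576 and 1156 at 24 h (2957), 1480 and 1087 at 72 h (3054), 665 and 421 for culture in XY (2169), 349 and 214 in XX (1168), 1285 and 926 for XY MEKi against XX DMSO at 24 h (2482), 1478 and 1169 at 72 h (2895) and 254 and 119 for the change of the sex difference (929).

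As single libraries were dropped, the members called ranged from 0 to 2 for FGFRi at 72 h, from 3 to 5 for FGFRi at 24 h, from 0 to 3 for culture in XX and from 0 to 1 for the change of the MEKi effect, and those for MEKi from 7 to 8 at 24 h and from 9 to 10 at 72 h. The share of all genes called is not given for these omissions.

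Values near 0 changed sign. *Etv4* with FGFRi at 24 h was −0.03 with total counts, −0.13 with voom and −0.13 with the replicate block, and *Spry1* in XY culture was 0.04 with total counts; the cause was not tested. With a library left out, FGFRi at 72 h ranged from −0.39 to 0.04 for *Dusp4*, −0.17 to 0.08 for *Dusp6* and −0.16 to 0.39 for *Etv4*, and FGFRi at 24 h from −0.18 to 0.03 for *Dusp6* and −0.42 to 0.23 for *Etv4*. *Spry2* between the sexes before culture ranged from −0.17 to 0.17. Culture in XY ranged from −0.26 to 0.04 for *Spry1*, −0.04 to 0.20 for *Spred1* and −0.08 to 0.19 for *Spred2*, and culture in XX from −0.11 to 0.27 for *Dusp6* and −0.04 to 0.18 for *Spred2*. The change of the MEKi effect ranged from −0.30 to 0.02 for *Spred2* and −0.56 to 0.39 for *Etv4*.

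Deviations of libraries with the same replicate number correlated weakly, from −0.089 to 0.132, which cannot show whether samples were paired. For FGFRi against DMSO at 72 h the same number was the closest match for 2, 5 and 6 but not for 4. In the other comparisons it mostly was not. With replicate number as a block, MEKi called 7 members at 24 h (272 of 13712 genes) and 9 at 72 h (929 of 13738). FGFRi called 4 at 24 h (430 of 13712 genes) and 3 at 72 h (284 of 13738). MEKi against FGFRi called 7 (897 of 13738 genes). Depth limits *Etv4* and *Dusp4* with MEKi at 72 h, which had 1 to 4 UMIs a library, and *Spry4* there, which had 3 to 8.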
